A study of Mus musculus with 8 samples.

Results

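The genes described here encode the classical MHC class II molecules of the mouse, H2-Aa, H2-Ab1 and H2-Eb1, together with Cd74, the invariant chain that assembles with them. They were taken as every probe that the platform annotation assigns to these 4 symbols, which gave 5 of the 9232 probes in the table, for 4 of 7053 named genes. No filter on dim probes was applied. The samples were EDL muscle (extensor digitorum longus, a shin muscle of mainly fast fibres) from Sod1 knockout mice, labelled sod-/-, on 4 Illumina arrays, and from wild-type mice on 4 more. All mice were 7 months old, and the labels give no strain, no batch and no further allele or treatment. Sod1 encodes the copper-zinc superoxide dismutase of the cytosol, and the series asks how muscle transcription responds to lasting oxidative stress. Sod1 itself was not analysed here, and the genotypes rest on the labels alone. Whether each array stands for a different animal is not stated, and the p-values therefore describe the spread among these arrays, which may be technical.

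MHC class II molecules are surface proteins made of an alpha and a beta chain, which show peptides from endocytosed material to CD4+ T cells. H2-Aa and H2-Ab1 encode the alpha and beta chain of the I-A molecule, and H2-Eb1 encodes the beta chain of I-E. The invariant chain fills the peptide groove of newly made class II molecules and guides them to endosomes, where proteases remove it. Dendritic cells, macrophages and B cells carry these molecules constitutively, and many other cells do so after interferon gamma. In muscle tissue they are known mainly from the macrophages and dendritic cells between the fibres. In whole muscle RNA, more cells of such a type and more RNA per cell cannot be told apart.

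H2-Ab1, H2-Aa and H2-Eb1 lie next to each other in this order on chromosome 17, with 0 other protein-coding genes between them in the GRCm38.p6 annotation. Promoters of class II genes share an X box, bound by the RFX complex, and a Y box, bound by NF-Y. The upstream sequences of H2-Eb1 and H2-Aa are shown because both carry these motifs. No upstream sequence of H2-Ab1 was available in the source used, and that of Cd74 is not shown. The matches below therefore cover H2-Eb1 and H2-Aa only. Each runs 5′ to 3′ on the gene's strand over the 250 bases before the annotated start, from RefSeq, build GRCm38.p6, at chr17:34305617-34305866 (plus strand) and chr17:34287824-34288073 (minus strand). Capitals mark matches to the Y box core CTGATTGG, to the X box core CTNGCAAC and to the X2 box core TGACGTCA, searched on both strands. The form of the X box core was chosen after these promoters had been read.
H2-Eb1: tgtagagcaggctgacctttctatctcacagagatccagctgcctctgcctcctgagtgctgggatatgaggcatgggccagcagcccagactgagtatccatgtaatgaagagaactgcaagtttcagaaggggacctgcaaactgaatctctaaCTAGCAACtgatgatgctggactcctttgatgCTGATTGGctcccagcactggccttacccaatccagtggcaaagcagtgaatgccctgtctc
H2-Aa: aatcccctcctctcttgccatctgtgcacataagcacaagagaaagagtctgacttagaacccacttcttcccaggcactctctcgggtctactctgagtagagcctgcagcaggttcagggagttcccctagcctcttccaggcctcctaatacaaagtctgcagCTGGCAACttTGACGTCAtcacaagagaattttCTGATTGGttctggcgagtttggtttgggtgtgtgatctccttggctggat

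In H2-Eb1 the X box match spans 94 to 87 bases before the start and the Y box match 62 to 55. In H2-Aa they span 84 to 77 and 51 to 44 bases before the start, and a match to the X2 box core follows the X box at 74 to 67. The gap between X and Y box matches is 24 bases in H2-Eb1 and 25 in H2-Aa. None of the 3 motifs overlaps another in these windows. Among 32851 windows of the same length, 3.83% hold the Y box core, 2.84% the X box core, 1.55% the X2 box core and 0.155% both the X and the Y box core. Of the 46 genes with both cores, 21 were measured besides H2-Aa and H2-Eb1. Their knockout means lay above the wild-type means in 13 and below in 8, with a median difference of 0.07 log2 units, and 0 passed the adjusted test (2 had an unadjusted p under 0.05).

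All values are the authors' deposited log2 intensities, which are quantile normalized so that every array has the same distribution, with a median of 6.93 and a range of 3.21 to 14.19. Each difference is knockout minus wild type in log2 units, tested with limma across all 9232 probes. Fast muscle fibre genes stood high in these samples: 14 were measured, with means over the 8 arrays between 9.18 and 13.98, and 11 of them lay above 13. The arrays correlated across probes, which are not independent replicates, with r of 0.947 to 0.977 among knockout pairs, 0.952 to 0.98 among wild-type pairs and 0.926 to 0.979 across genotypes.

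All 4 genes had higher mean intensities in Sod1 knockout muscle than in wild-type muscle, by 1.15 to 1.45 log2 units, or 2.22 to 2.73-fold. The 5 probes gave nearly the same order of arrays, with knockout replicate 3 far above all others. The differences did not pass the test across all probes.

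For H2-Aa, the alpha chain of I-A, the log2 intensities were 6.17, 6.74, 8.33 and 6.12 in knockout replicates 1 to 4, against 5.68, 5.20, 5.96 and 5.86 in wild-type replicates 1 to 4. Every knockout array lay above every wild-type array, and replicate 3 stood apart as the highest. The means were 6.84 ± 1.04 in knockout arrays and 5.68 ± 0.34 in wild-type arrays (SD, n = 4 each), a difference of 1.16 (95% interval 0.17 to 2.16, unadjusted p = 0.0266, limma adjusted p = 0.413).

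H2-Ab1, the beta chain that pairs with it, was read by 2 probes. The brighter gave 6.75, 7.47, 9.07 and 7.26 in knockout replicates 1 to 4, against 6.35, 5.94, 6.85 and 6.63 in the wild type. Knockout replicate 1 lay inside the wild-type range and the other 3 knockout arrays above it. Its means were 7.64 ± 1.00 in knockout arrays and 6.44 ± 0.39 in wild-type arrays (SD, n = 4 each), a difference of 1.20 (95% interval 0.21 to 2.18, limma adjusted p = 0.395). The dimmer probe gave 5.99, 6.83, 8.46 and 6.73 in the knockout, against 5.57, 5.64, 6.16 and 5.74 in the wild type. It differed by 1.23 (95% interval 0.24 to 2.21, limma adjusted p = 0.382), and knockout replicate 1 again fell within the wild-type range. The difference between the genotypes was thus read alike by both probes, whose gap within an array ran from 0.53 to 0.77 in knockout arrays and from 0.30 to 0.89 in wild-type arrays.

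H2-Eb1, the beta chain of I-E, had the largest difference of the 5 probes. Its log2 intensities were 5.39, 6.03, 7.58 and 5.90 in knockout replicates 1 to 4, against 4.40, 4.76, 5.40 and 4.55 in the wild type. The genotypes overlapped through a single pair of arrays, since knockout replicate 1 lay just under wild-type replicate 3. Means of 6.22 ± 0.95 in knockout arrays and 4.78 ± 0.44 in wild-type arrays (SD, n = 4 each) gave a difference of 1.45, or 2.73-fold (95% interval of the fold 1.40 to 5.30, unadjusted p = 0.00723, limma adjusted p = 0.321).

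Cd74, the invariant chain, stood at 7.13, 7.77, 9.09 and 7.63 in knockout replicates 1 to 4, against 6.60, 6.39, 7.32 and 6.71 in the wild type. As for H2-Ab1 and H2-Eb1, knockout replicate 1 was below wild-type replicate 3 and the other knockout arrays were above all wild-type arrays. The means of 7.90 ± 0.84 in knockout arrays and 6.76 ± 0.40 in wild-type arrays (SD, n = 4 each) differed by 1.15 (95% interval 0.29 to 2.01, unadjusted p = 0.0142, limma adjusted p = 0.377).

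**Figure D1:**
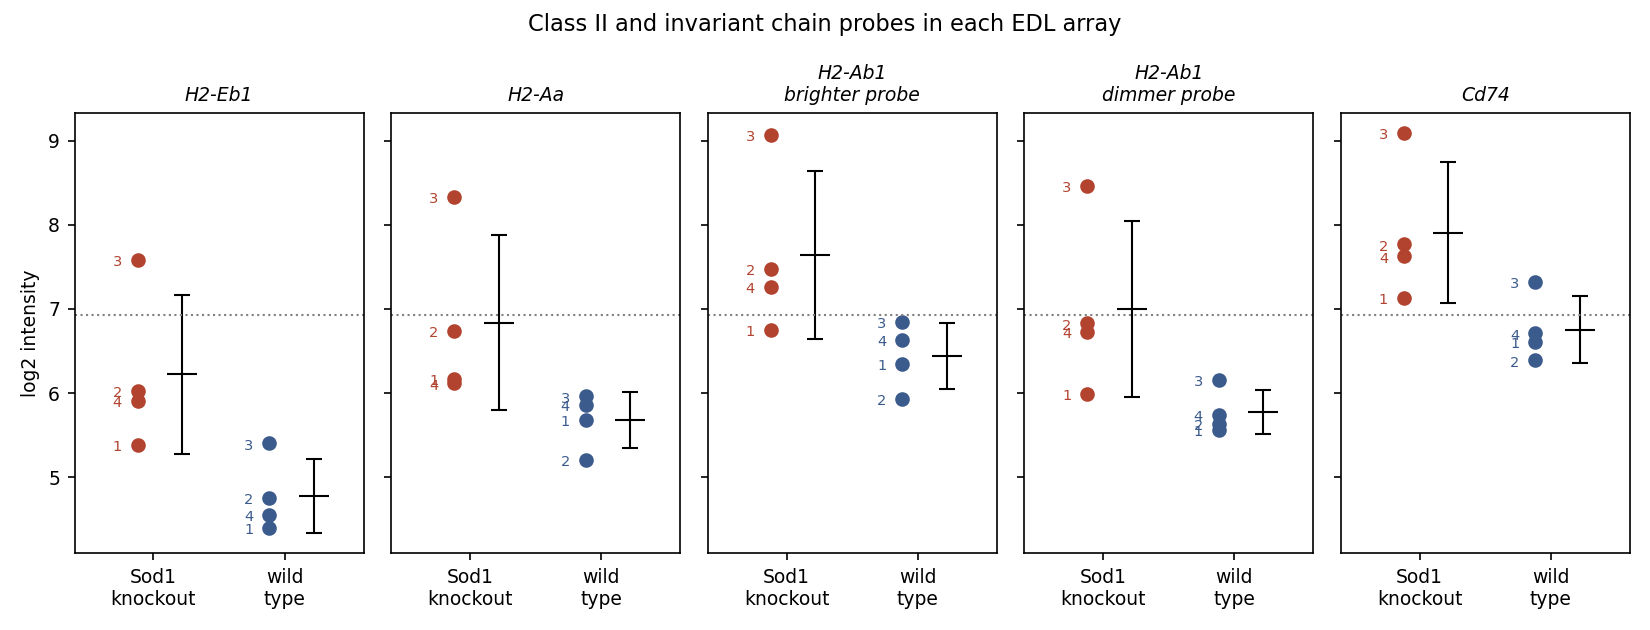
Log2 intensity (vertical axis) of the 5 probes of H2-Eb1, H2-Aa, H2-Ab1 and Cd74, with 1 panel per probe. Points are single arrays with their replicate numbers, knockout on the left and wild type on the right, the bars beside them are mean ± SD (n = 4), and the dotted line is the array median of 6.93. Knockout replicate 3 is the highest point in all 5 panels.

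With limma and Benjamini-Hochberg adjustment over all probes, 0 of the 5 probes had an adjusted p under 0.05, where the whole table also had 0, or 0.0%, and the smallest adjusted p of any probe was 0.249. Without knockout replicate 2 the table had 56 probes past the threshold, 0 of them class II probes. At an unadjusted p under 0.05 the table had 961 probes, or 10.4%, with 528 of them higher in the knockout, which is 5.72% of all probes. The 5 class II probes were all among these, and they ranked between 208 and 595 by p. A difference of at least 1 log2 unit above the wild type was found at 1.42% of probes and at all 5 class II probes. Knockout and wild-type arrays did not overlap at 5.56% of probes, 2.78% with the knockout higher, and at 1 of these 5, the H2-Aa probe. The genes were chosen with earlier results of these arrays known and they vary together, so these counts do not stand as 5 separate observations. A two-sided exact permutation test, with 70 possible arrangements of the labels, gave p = 0.0286 for H2-Aa, the smallest it can give, and p = 0.0571 for each of the other 4 probes.

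Most of these probes were dim. Cd74 lay above the array median in 5 of 8 arrays, the brighter H2-Ab1 probe in 3, and the dimmer H2-Ab1 probe, H2-Aa and H2-Eb1 in 1, which was knockout replicate 3. A filter that keeps probes above the array median in at least 4 arrays would keep 1 of the 5, Cd74. Detection calls were not used here, so whether the lowest values rise above background is not known.

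The arrays of the knockout differed from each other more than those of the wild type did, through replicate 3. The SD over knockout arrays was 0.84 to 1.04 for the 5 probes, against 0.26 to 0.44 over wild-type arrays, where the median SD over all probes was 0.323 in knockout arrays and 0.308 in wild-type arrays. Over the other 3 knockout arrays the SD was 0.33 to 0.46, below that of the wild type for H2-Eb1, Cd74 and the brighter H2-Ab1 probe and above it for H2-Aa and the dimmer H2-Ab1 probe. Knockout replicate 3 stood 2.34 to 2.81 log2 units above the wild-type mean over the 5 probes, or 5.05 to 6.99-fold. Knockout replicate 2 stood 1.01 to 1.25 above it, replicate 4 0.44 to 1.13 and replicate 1 0.21 to 0.61. All 4 knockout arrays thus lay above the wild-type mean at all 5 probes. Wild-type replicate 3 was the highest wild-type array at all 5 probes, at 0.28 to 0.63 above the wild-type mean.

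Leaving out knockout replicate 3 reduced each difference without turning it. H2-Eb1 then differed by 1.00, H2-Aa by 0.66, the H2-Ab1 probes by 0.72 and 0.74 and Cd74 by 0.75, with unadjusted p from 0.00634 for H2-Eb1 to 0.0274 for H2-Aa and adjusted p from 0.548 to 0.647 by limma. The smaller difference came with a smaller spread, as the standard error of H2-Aa was 0.25 without that array and 0.45 with it. Over the 8 fits that leave out 1 array, H2-Eb1 differed by 1.00 to 1.73 and H2-Aa by 0.66 to 1.40. The unadjusted p of H2-Aa and of the brighter H2-Ab1 probe was above 0.05 without wild-type replicate 2, at 0.0687 and 0.0589.

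**Figure D2:**
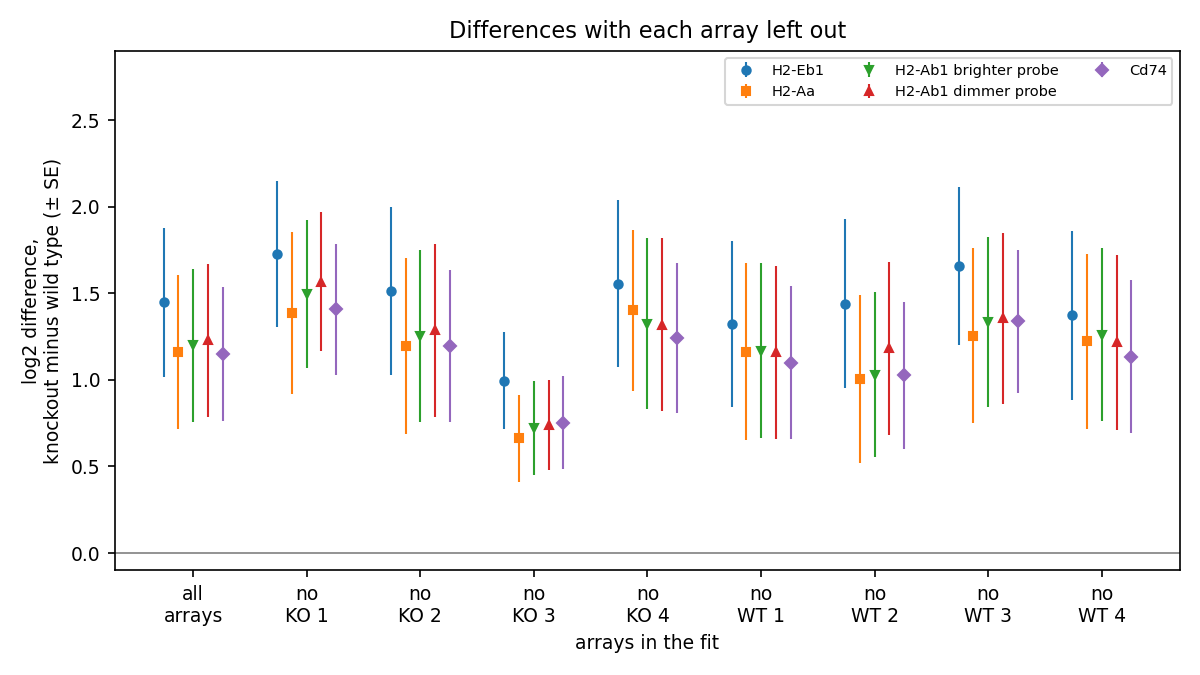
Difference between knockout and wild type (vertical axis, log2 units, ± SE from limma) for the 5 probes with all arrays and with each array left out in turn (horizontal axis). All differences stay above 0, and they are smallest without knockout replicate 3, at 0.66 to 1.00.

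The 5 probes followed each other closely over the arrays. Pearson's r over the 8 arrays was between 0.929 and 0.988 for the 10 pairs of probes. After subtraction of each genotype's mean, which removes the difference between genotypes, r was between 0.876 and 0.980. These are descriptions of the same 8 arrays, in which knockout replicate 3 carries much of the variation. H2-Ab1 and Cd74, which lies on chromosome 18, were each other's closest gene among 7052 by r over the 8 arrays. Of the 12 ordered pairs of the 4 genes, 11 placed the second gene within the 10 closest to the first. With genotype means subtracted this was so for 6 of 12, and the lowest place was 53.

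Outside the 4 genes, the closest profiles over the 8 arrays were those of Tmem25, Fgf2, Armcx3, Sdhc and Phactr3, with r to the mean class II profile of 0.981, 0.981, 0.972, 0.970 and 0.967. In all, 22 of the 7049 other genes had r above 0.9. Tmem25, a transmembrane protein of the immunoglobulin superfamily, stood at 7.19, 7.54, 8.91 and 7.37 in knockout replicates 1 to 4, against 6.27, 5.88, 7.13 and 6.33 in the wild type. The genotypes did not overlap for Tmem25, Sdhc and Phactr3, with the knockout higher, as at 2.78% of all probes. The difference of Tmem25 was 1.35 (limma adjusted p = 0.318), within the range of the class II probes. The class II profile holds the genotype difference, so a higher knockout mean follows in part from how these genes were picked. Fgf2, a growth factor, differed by 0.34 at an intensity below the array median in all 8 arrays. Armcx3, an armadillo repeat protein of the outer mitochondrial membrane, differed by 0.61, Sdhc, a membrane anchor of succinate dehydrogenase, by 0.23, and Phactr3, a phosphatase and actin regulator, by 0.56. None of the 5 passed, with limma adjusted p from 0.318 to 0.640. Of the genes in the pathway and marker lists described below, the closest were Psme1 at r = 0.846, in place 67, and Laptm5 at r = 0.835, in place 83.

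Genes that make, cut and turn over class II molecules did not share one direction. H2-DM, H2-O and the main class II regulator Ciita were not analysed here. Of 9 measured genes for processing and turnover, 4 had higher and 5 lower means in the knockout, with a median difference of -0.10 beside -0.02 over all probes. By unadjusted p under 0.05, 1 was higher, Lgmn, and 1 lower, Marchf8, where 5.72% and 4.69% of all probes were, and 0 passed after adjustment.

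Lgmn, a lysosomal asparagine endopeptidase that cuts antigens and the invariant chain, stood at 8.13, 7.16, 8.46 and 7.76 in knockout replicates 1 to 4, against 6.73, 6.19, 6.79 and 6.92 in the wild type. All its knockout arrays lay above all wild-type arrays, and replicate 3 was again the highest. The means of 7.88 ± 0.56 in knockout arrays and 6.66 ± 0.32 in wild-type arrays (SD, n = 4 each) differed by 1.22 (limma adjusted p = 0.251). Without knockout replicate 2, its lowest knockout array, Lgmn differed by 1.46 and passed (limma adjusted p = 0.0418). In that fit 56 of 9232 probes passed. Lgmn did not pass with array weights (limma adjusted p = 0.092) or without knockout replicate 1 (limma adjusted p = 0.460). Unlike the class II genes, Lgmn had its second highest knockout value in replicate 1 and its lowest in replicate 2.

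Marchf8, a ubiquitin ligase whose targets include class II molecules, stood at 6.17, 5.73, 5.97 and 5.88 in the knockout, against 6.39, 6.33, 6.39 and 6.67 in the wild type. Its knockout arrays lay below all wild-type arrays, as at 2.77% of all probes, with a difference of -0.51 (limma adjusted p = 0.377). Ifi30, the lysosomal thiol reductase that unfolds antigens, was read by 2 probes that differed by -1.49 and -0.77 (limma adjusted p = 0.480 and 0.532). The brighter Ifi30 probe gave 5.85, 8.72, 5.17 and 6.26 in the knockout, against 8.65, 8.19, 6.95 and 8.18 in the wild type. Knockout replicate 3, the highest array for class II genes, was the lowest at this probe and knockout replicate 2 the highest of all 8. At the dimmer Ifi30 probe the lowest was knockout replicate 1, at 5.11, and the highest wild-type replicate 1, at 7.25. Ctsh, the aminopeptidase cathepsin H, differed by -0.61 (limma adjusted p = 0.558).

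**Figure D3:**
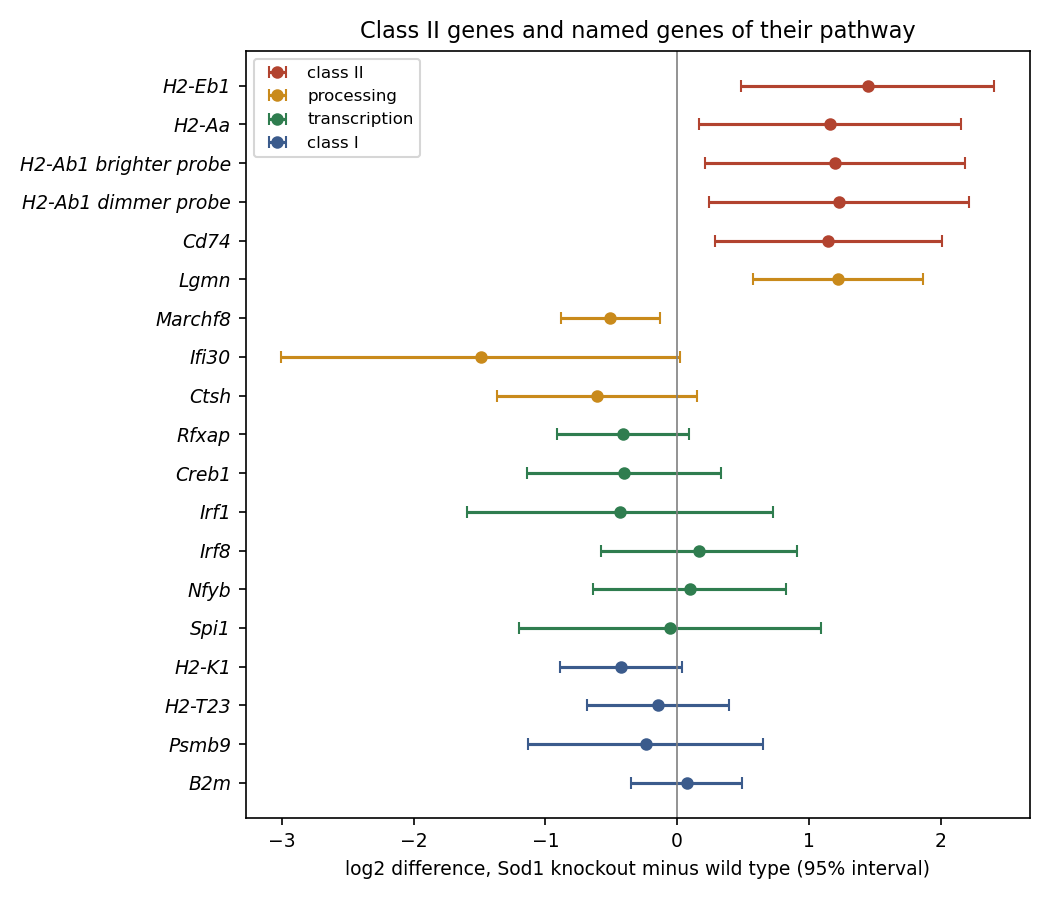
Difference between knockout and wild type (horizontal axis, log2 units) with its 95% interval from limma for the class II probes, the named genes of processing and turnover, the transcription factors and the class I genes. The 5 class II probes and Lgmn lie between 1.15 and 1.45 above 0, while the transcription factors and class I genes lie between -0.43 and 0.17. The other genes of processing and turnover shown, Marchf8, Ifi30 and Ctsh, lie below 0, at -0.51, -1.49 and -0.61.

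Transcription factors that act on class II promoters had a median difference of -0.23 over 6 measured genes, 2 higher and 4 lower. At an unadjusted p under 0.05 there were 0, where 10.4% of all probes were. Rfxap, a subunit of the RFX complex of the X box, averaged 7.41 ± 0.26 in knockout arrays and 7.82 ± 0.37 in wild-type arrays (SD, n = 4 each). Nfyb, a subunit of NF-Y, differed by 0.10, and Creb1, a factor of the X2 box, by -0.40. Spi1, the myeloid factor PU.1, differed by -0.05 and Irf1, an interferon-responsive factor, by -0.43. Irf8, a factor of macrophages and dendritic cells, averaged 4.49 ± 0.74 in knockout arrays and 4.32 ± 0.23 in wild-type arrays (SD, n = 4 each). Irf8, Irf1, Spi1 and Nfyb each had their highest value of all 8 arrays in knockout replicate 3, at 5.38, 6.12, 6.22 and 8.97. Rfxap and Creb1 had theirs in wild-type replicate 2, at 8.23 and 5.24. Irf8, Irf1 and Spi1 lay below the array median in all 8 arrays. In wild-type replicate 3, Spi1 stood at 6.02 and Nfyb at 8.81, each its highest wild-type value. Irf8, at 4.09, and Creb1, at 3.68, had their lowest wild-type value in that array. Irf1, at 5.43, and Rfxap, at 7.78, lay between their wild-type extremes there.

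The interferon gamma pathway, the main inducer of class II genes, was read by 8 signalling genes and 10 induced genes. Of the signalling genes, 1 was higher and 7 were lower by the probe of highest mean, with a median difference of -0.20. By unadjusted p under 0.05 there were 0, where 10.4% of all probes were. Jak2, counted as lower, had another probe that differed by 0.35. Ptpn11, counted as higher, had another that differed by -0.0032. Ifngr1, a chain of the receptor, differed by -0.41 and Jak1, its kinase, by -0.41. Of the induced genes, 5 were higher and 5 lower, with a median difference of 0.00042. Psme1 and Psme2, the interferon-inducible activator of the proteasome, differed by 0.45 and 0.42, and the GTPases Irgm1 and Igtp by 0.34 and 0.51 (limma adjusted p from 0.504 to 0.689). The mean of the induced list was -0.51, 0.25, 0.68 and -0.17 in knockout replicates 1 to 4 relative to the wild-type mean, against 0.13, -0.46, 0.04 and 0.29 in the wild type. Its highest array was knockout replicate 3, as for the class II genes, and its lowest was knockout replicate 1.

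MHC class I genes, which show peptides from the cytosol on nearly all cells, did not follow the class II genes. Of 11 measured genes of class I presentation, 4 were higher and 7 lower, with a median difference of -0.01 and a range of -0.42 to 0.07. H2-K1, a class I heavy chain, averaged 5.73 ± 0.18 in knockout arrays and 6.15 ± 0.35 in wild-type arrays (SD, n = 4 each), below the array median in all 8 arrays. H2-T23, a non-classical heavy chain, differed by -0.14 at its brighter probe and by -0.33 at its dimmer probe. Psmb9, an immunoproteasome subunit, differed by -0.24. The common light chain B2m, chosen after its values were seen, averaged 10.33 ± 0.13 in knockout arrays and 10.25 ± 0.29 in wild-type arrays (SD, n = 4 each). In a comparison chosen after seeing the data, each class II gene was then set against the mean of the class I list within each array. This ratio was 1.24 to 1.54 log2 units higher in the knockout for the 4 genes, and the genotypes did not overlap for any of them. Relative to the wild-type mean, the class I list was at -0.36, 0.05, 0.0039 and -0.07 in knockout replicates 1 to 4. In the wild type it was at -0.02, -0.17, 0.07 and 0.11. Its lowest array was thus knockout replicate 1, through which H2-Ab1, H2-Eb1 and Cd74 overlapped on their own. Their lack of overlap in the ratio therefore rests in part on the class I values of that array. The share of all genes that would not overlap in such a ratio is not given here. The 4 genes vary together, so they do not stand as 4 separate observations. The exact permutation p was 0.0286 for each, the smallest possible, and 0.0571 after adjustment over the 8 such comparisons made, so none passed.

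Of the costimulatory genes, Cd80 and Cd274 were measured, and they differed by 0.09 and -0.12. Cd80 provides costimulation to T cells and Cd274 inhibits them.

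Macrophage markers leaned the same way as the class II genes but overlapped between genotypes. Of 29 listed genes 11 were measured, and 0 had an unadjusted p under 0.05, where 10.4% of all probes did. Higher knockout means were found for 10 of these 11, where 47.5% of all probes had them. The differences ran from -0.0019 to 0.53, with a median of 0.39. That median was 0.08 without wild-type replicate 1, 0.18 without knockout replicate 3 and 0.73 without knockout replicate 1. Most of the 11 genes were dim: Laptm5 lay above the array median in all 8 arrays, Fcer1g in 2, Coro1a in 1 and the others in 0. Laptm5, a lysosomal protein of blood cells, stood at 7.90, 8.60, 9.62 and 8.68 in knockout replicates 1 to 4, against 7.93, 8.28, 8.05 and 8.58 in the wild type, with its maximum in replicate 3. C1qb, a complement component made by macrophages, differed by 0.50, Coro1a, an actin-binding protein of leukocytes, by 0.45, and Fcer1g, a signalling chain of Fc receptors, by 0.53. These 4 genes were those of smallest p in the list (limma adjusted p from 0.631 to 0.729). The summed log2 intensity of the 11 genes ran from 54.6 to 69.4 in knockout arrays and from 52.4 to 68.5 in wild-type arrays, and no intensity in this table is 0.

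Within the knockout, the macrophage list and the class II genes put the 4 arrays in the same order, with replicate 3 highest, then 2, 4 and 1, and in the wild type the order differed. Relative to the wild-type mean, the list mean was -0.54, 0.72, 0.81 and 0.32 in knockout replicates 1 to 4, against -0.73, 0.03, -0.03 and 0.73 in the wild type. The mean of the 4 class II genes was 0.45, 1.09, 2.61 and 0.81 in the same knockout arrays, against -0.15, -0.34, 0.47 and 0.02 in the wild type. Knockout replicate 1 was thus above the wild-type mean for class II genes and below it for macrophage markers. It was below it for most other lists too, from -0.10 for dendritic cell markers to -0.82 for class II transcription. For B cell, T and NK cell, neutrophil and mast cell and fast fibre genes it was above, at 0.14 to 0.83. Wild-type replicate 4, near the wild-type mean for class II genes, was among the highest arrays for macrophage markers. Set against the macrophage list within each array, the 4 genes were 0.82 to 1.12 log2 units higher in the knockout, with overlap between genotypes for all 4 and exact permutation p from 0.0571 to 0.171 (adjusted over the 8 comparisons, 0.0914 to 0.171).

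**Figure D4:**
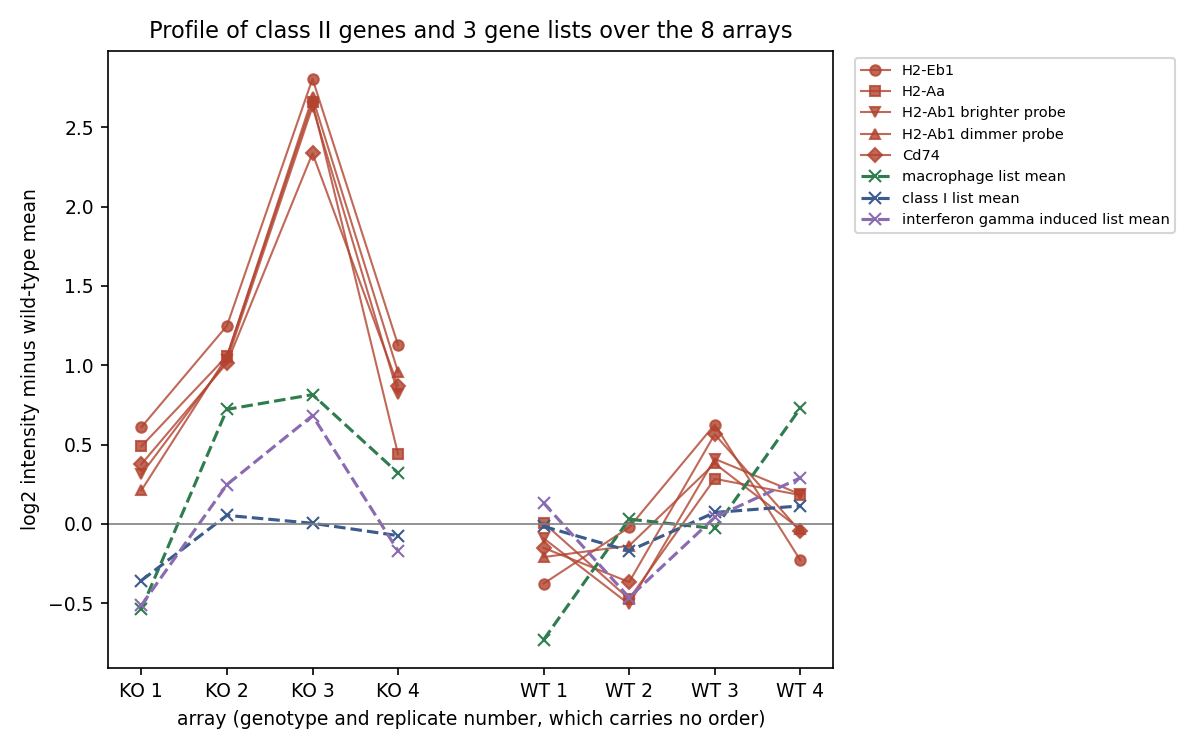
Log2 intensity minus the wild-type mean (vertical axis) in each of the 8 arrays (horizontal axis, knockout left and wild type right), for the 5 class II probes as solid lines and for the means of 3 gene lists as dashed lines. The class II probes reach 2.34 to 2.81 in knockout replicate 3, where the macrophage list reaches 0.81, the interferon gamma induced list 0.68 and the class I list 0.0039.

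Markers of dendritic cells were sparse and divided, and they were dim, as most macrophage markers were. Of 16 listed genes 6 were measured, 4 higher and 2 lower, with a median difference of 0.22 and a summed log2 intensity of 25.7 to 30.6 in knockout arrays and 26.3 to 30.2 in wild-type arrays. Itgae, the integrin chain CD103 of a subset of dendritic cells and T cells, stood at 4.46, 4.60, 5.02 and 4.04 in knockout replicates 1 to 4, against 3.34, 3.85, 3.23 and 3.85 in the wild type. Its knockout arrays all lay above the wild type, with a difference of 0.96 (limma adjusted p = 0.279), at intensities below the array median throughout. Siglech, a marker of plasmacytoid dendritic cells, differed by 0.46, and Cd24a, found on dendritic cells and on many other cells, by -1.31 (limma adjusted p = 0.409). Of 16 B cell markers 3 were measured, with a summed log2 intensity of 14.8 to 15.9 in knockout arrays and 13.6 to 14.6 in wild-type arrays. All 3 lay below the array median in every array, and by their means 2 were higher and 1 lower in the knockout. Blnk, a signalling adaptor of B cells that macrophages also express, differed by 0.75 (limma adjusted p = 0.386), Ms4a1, the B cell antigen CD20, by 0.21 and Ebf1, a B cell transcription factor, by -0.04. Without knockout replicate 1, Ms4a1 differed by -0.034. The part of these cell types in the class II difference was not tested beyond the values given here.

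Lists of endothelial, fibroblast, blood and adipocyte genes had mostly lower means in the knockout. Of 15 endothelial genes 14 had lower means in the knockout, with a median difference of -0.38, and 4 were lower at an unadjusted p under 0.05, where 4.69% of all probes were. These were Adcy4, an adenylate cyclase, at -0.65, the angiopoietin receptor Tek at -0.50, its relative Tie1 at -0.66 and the adhesion molecule Icam2 at -0.67 (limma adjusted p from 0.279 to 0.406). All 6 fibroblast and matrix genes and all 4 blood and adipocyte genes measured also had lower means by the probe of highest mean. Their median differences were -0.18 and -0.47. Dcn, in the fibroblast and matrix list, had other probes that differed by -0.23 and 0.12. Other lists leaned higher: 12 of 14 fast muscle fibre genes had higher means, where 47.5% of all probes did, with a median difference of 0.11. For 3 of them all knockout arrays lay above the wild type, as at 2.78% of all probes. These 3 differed by only 0.13 to 0.19 (limma adjusted p from 0.666 to 0.790). Their group means were 13.70 to 13.97, near the highest value of all, 14.19. Of 4 neutrophil and mast cell genes 3 had higher means, with differences from -0.74 for Cpa3, a mast cell protease, to 0.92 for S100a9, a neutrophil protein (limma adjusted p = 0.664 and 0.587). The single T and NK cell gene measured, the T cell kinase Zap70, differed by 0.24. The part of these lists in the class II difference was not tested.

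The measured genes around the class II block on chromosome 17 gave no such difference. The 6 nearest measured genes on each side, a choice made after the class II values were seen, differed by -0.38 for Fkbpl to 0.43 for Rnf5. Of these 12, 3 were higher and 9 lower, and 0 had an unadjusted p under 0.05, where 10.4% of all probes did.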

How the data were processed

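Per the labels' protocols, RNA was isolated with an RNeasy kit for fibrous tissue, amplified to cRNA carrying biotin and hybridised to Illumina arrays. The analysis starts from log2 intensities as deposited by the authors, whose 8 columns hold the same sorted values and were therefore quantile normalized. That the base is 2 was judged from the range. The sources used here do not give the background correction or any probe filter. Nothing more was normalized. Quantile normalization hides any shift common to all transcripts of an array. Another table, without normalization, was left out because none of its 8 column names could be tied to a sample.

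Of the 9232 probes, 8403 had 1 gene name, 3 had several and 826 had none; for 8399 an Entrez number was found in the RefSeq genes of GRCm38.p6, which altered 0 symbols. The fit used limma 3.58.1 in R 4.3.3 (genotype term, eBayes without trend, two-sided) over all probes, with Benjamini-Hochberg adjusted p under 0.05 as the threshold; the procedure was tested on simulated data. The number of arrays limits the precision, and the median standard error of a difference was 0.23. The probe of highest mean stood for a gene of the lists. The members and lists were chosen with earlier results of these data known, so lists are described by counts and medians without a set test. Named from each list are up to 4 genes of smallest p, or any gene of a list with 8 or fewer measured, and the 5 genes closest to the class II profile; B2m, Rnf5 and Fkbpl were chosen after their values were seen. The class I list held Pfdn6 under its older symbol H2-Ke2, a prefoldin subunit and no class I gene, which was left in the counts. Alternative settings changed the probe filter, limma's moderation, array weights, the replicate block, the normalization or the test, or left out an array.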

Additional observations from a re-analysis of the deposited data

Results flagged for a closer look

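In 3 genes a single array lay far from the other 3 of its genotype, by a gap of more than 0.829 of the group's whole range (Dixon's 95% critical value for 4 samples). Chance gives this in about 1 of 20 groups, and 3 of 134 groups were found. The gap was 0.861 of the range for Irgm1, at 7.80 in knockout replicate 3 against 7.14 to 7.23 in the other knockout arrays. For Igtp it was 0.835, at 4.64 in knockout replicate 1 against 5.99 to 6.25 in the others. For Cd274 it was 0.849, at 4.42 in wild-type replicate 4 against 5.21 to 5.35 in the other wild-type arrays. The class II probes themselves met this limit in neither genotype.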

How the results depend on the processing

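No class II probe passed the adjusted threshold in any fit, and all 5 stayed higher in the knockout in every fit in which they were tested. With each array left out, the differences ran from 1.00 to 1.73 for H2-Eb1, 0.66 to 1.40 for H2-Aa, 0.72 to 1.49 and 0.74 to 1.57 for the brighter and dimmer H2-Ab1 probe and 0.75 to 1.41 for Cd74. Over the filters, moderation, array weights, replicate block and normalizations they ran from 0.91 to 1.45, and adjusted p over all fits ran from 0.204 to 0.647. The filter at the array median left Cd74 as the only class II probe tested. The exact permutation test, which has no adjustment over probes, gave p = 0.0286 for H2-Aa (difference 1.16) and 0.0571 for the other 4 probes, where the unadjusted limma p was under 0.05 for all 5. That of H2-Aa no longer lay under 0.05 with array weights and was 0.0687 without wild-type replicate 2, and that of the brighter H2-Ab1 probe 0.0589 without that wild-type array. Deviations of same-numbered knockout and wild-type arrays correlated at -0.15, -0.15, 0.20 and -0.26, so the numbers were not taken as pairs. With the replicate block H2-Eb1 differed by 1.45 (adjusted p = 0.386), and the block changed no call. The count of probes past the threshold was 0 with all arrays, 5 with array weights and 56 without knockout replicate 2 (51 higher, 5 lower), in both cases without a class II probe; over the fits that leave out an array it ran from 0 to 56. The count at an unadjusted p under 0.05 was 439 of 4698 probes with the filter at the median, since fewer were tested. With each array left out it ran from 666 to 1390, beside 961 with all arrays.

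Of 46 other named genes, 9 had a difference that turned sign under at least 1 setting, none of them past the threshold. With array weights Nfyb was -0.0080 and B2m -0.013. With each array left out, the ranges were -0.11 to 0.30 for Nfyb, -0.0057 to 0.20 for B2m, -0.50 to 0.34 for Spi1, -0.42 to 0.23 for Cd274, -0.034 to 0.40 for Ms4a1, -0.48 to 0.14 for Psmb9, -0.13 to 0.37 for Irf8, -0.0055 to 0.17 for Cd80 and -0.12 to 0.027 for Ebf1. The causes were not tested.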
